A study of Mus musculus with 21 samples.

Results

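The genes described here are 9 epidermal kallikreins, Klk5, Klk6, Klk7, Klk8, Klk9, Klk10, Klk11, Klk13 and Klk14, and the protease inhibitor gene Spink5. They were taken by name, as 10 of the 49315 genes in the count files, and all 10 entered the comparison at 6 months, where 17755 genes were tested. The series is about AP-2α (gene Tfap2a) and AP-2β (gene Tfap2b), transcription factors, in adult mouse epidermis. RNA of epidermal sheets was sequenced in 7 groups of 3 samples. All genes read 0 in 13 of the 21 files, and the other 8 held 11318181 to 17746284 counts.

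The groups used were the strain-specific control at 6 months (3 libraries, genotype given as WT), the genotype K14CreTfap2afl/flTfap2bfl/fl at 6 months (3 libraries, called here the libraries labelled double knockout), and K14CreTfap2bfl/fl at 3 weeks (2 libraries with counts). In both knockout genotypes Cre is driven by the K14 promoter, which is active in basal keratinocytes, so that cells of other origin in a sheet keep the floxed alleles. The labels do not say that the samples came from separate animals, so p-values measure the spread between these samples. No control at 3 weeks held counts, and the libraries of that age entered no test.

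Kallikreins are secreted serine proteases made as inactive precursors. In the uppermost layers of the epidermis they activate one another and cut the desmosomal proteins that hold corneocytes together, so that cells are shed at the surface. LEKTI, the multidomain inhibitor encoded by Spink5, holds several of them in check, and loss of its human counterpart causes Netherton syndrome, a skin barrier disease. Klk5 is regarded as the initiator of the cascade, Klk7 as a chymotrypsin-like enzyme of the same step, and Klk6, Klk8, Klk11, Klk13 and Klk14 as further trypsin-like or related members.

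The targeted genes did not show the loss that the label names. Tfap2a was at 165, 140 and 210.1 CPM (counts per 1000000 counts of the library) across the controls, against 229, 213 and 309 CPM under the double-knockout label, a fitted log2 difference of 0.47 (edgeR SE 0.19, adjusted p 0.118). Tfap2b was at 57.3, 86.6 and 71.0 against 53.8, 57.2 and 56.9 CPM (log2 fold change -0.43, SE 0.17, edgeR adjusted p 0.111). Counts over a whole gene can miss a floxed deletion, and the deleted exons were not analysed here, so every direction below is that of the label. Control replicates 1 and 2 also stood apart: genes of odorant and vomeronasal receptors, which skin should lack, gave 1.608 and 3.192 counts per kb there, and 0.09704 to 0.1949 in the other 6 libraries with counts. The calls of the members are therefore also given with control replicate 3 as the only control. Under the Tfap2b knockout label at 3 weeks Tfap2b was at 44.9 and 71.7 CPM.

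At 6 months Klk5, Klk7 and Spink5 fell and Klk6 rose under the double-knockout label. Klk5 was 5.35-fold lower, Klk7 was 2.09-fold lower, Spink5 was 2.03-fold lower and Klk6 was 6.32-fold higher in the fit. The other 6 kallikreins did not pass the threshold, an adjusted p of 0.05 in edgeR's quasi-likelihood test over all genes tested. The 4 genes past it are 40% of the 10 members, beside 14.9% of all genes tested. In each direction the counts were 1 higher, beside 6.26% of all genes, and 3 lower, beside 8.59%. The members were chosen with earlier results of these data known, so these shares describe them and test nothing. The median log2 fold change was 0.33 over the members and -0.04 over all genes tested.

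Several marker lists of cell types also differed between the groups, and others did not. The summed CPM of the suprabasal, T cell, Langerhans and myeloid, melanocyte and endothelium lists overlapped. Of the suprabasal genes 1 was called higher and 1 lower, and none was called in the others. Calls in the lists below stand beside 6.26% higher and 8.59% lower over all genes tested. The 7 basal markers summed to 8224 to 10485 CPM across the controls, against 15753 to 18754 CPM under the double-knockout label, with 5 higher. Krt15, a basal keratin gene of that list, went the other way without overlap. It had 728, 1164 and 1187 CPM across the controls, against 234, 673 and 330 CPM. Its log2 fold change was -1.39 (edgeR SE 0.39, adjusted p 0.0513). The 8 genes of wounded or stressed keratinocytes summed to 466 to 730.0 and 3500 to 4680 CPM, with 4 higher. Lower without overlap were the sums of 10 sebaceous genes (1451 to 1595 and 716 to 839 CPM, 4 lower) and 7 upper follicle genes (1395 to 1577 and 785 to 1173 CPM, 2 lower). So were those of 12 hair shaft and inner root sheath genes (52.8 to 61.04 and 28.8 to 42.4 CPM, 1 lower), 8 dermal fibroblast genes (59.5 to 169 and 24.98 to 50.2 CPM, 3 lower and 1 higher) and 5 muscle genes (4.95 to 11.6 and 1.45 to 2.86 CPM, 1 lower). Of these lists 9 sebaceous, 10 hair and 2 muscle genes were tested. The muscle gene Myh4 had 32 and 38 counts in control replicates 1 and 2, which stood apart in receptor counts, and 0 in control replicate 3. The part of that background in the low sums was not tested. No gene of these lists was at 0 in all 6 libraries. In the upper follicle list Krt80 fell from 704 to 258 CPM and Plet1 from 289 to 73.3 CPM (means, n = 3 each). Krt79, Defb6 and Lrig1 had fitted log2 differences above 0 (0.73, 0.88 and 0.22), and Cst6 and Fst below (-0.43 and -0.89). None of these 5 passed the threshold, so the lower sum does not describe every gene of that list.

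The 12 markers of the granular and cornified layers, where kallikreins and Spink5 are made, did not separate the groups. Their sums overlapped, at 4009 to 6830 CPM across the controls and 2388 to 4188 CPM under the double-knockout label, and their median log2 fold change was -0.05, beside -0.04 over all genes tested. Flg2 and Cdsn fell, and the other 10 did not pass the threshold, with fitted values from -1.27 for Lor, the loricrin gene, to 3.59 for Rptn, the repetin gene. The part of these cell type and layer markers in the values of the kallikreins and Spink5 was not tested. In bulk RNA, fewer cells of a type and less RNA per cell cannot be told apart.

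The 9 kallikrein genes span 161 kb of chromosome 7 in GRCm38, all on the plus strand, in the order Klk14, Klk13, Klk11, Klk10, Klk9, Klk8, Klk7, Klk6 and Klk5. Sequence upstream of the RefSeq start (GRCm38.p6) was in hand for the 9 kallikreins. It is shown for Klk5, Klk7 and Klk6, the kallikreins that passed the threshold, and for Klk8 and Klk9, the members whose 250 upstream bases hold the AP-2 consensus GCCNNNGGC, printed in capitals. Each is on the plus strand, written 5′ to 3′, and bases in exons of the deposited gene models on that strand are left out. The Klk5 stretch lies before the RefSeq start but inside the deposited Klk5 gene, which begins at 43841971. For Klk6 only the stretch before the first of its RefSeq starts is shown.
Klk5, chr7:43842068-43842268: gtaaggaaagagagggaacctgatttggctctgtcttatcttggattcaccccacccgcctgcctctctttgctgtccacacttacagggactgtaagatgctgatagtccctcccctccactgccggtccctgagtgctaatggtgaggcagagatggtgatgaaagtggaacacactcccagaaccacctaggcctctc
Klk7, chr7:43811044-43811293: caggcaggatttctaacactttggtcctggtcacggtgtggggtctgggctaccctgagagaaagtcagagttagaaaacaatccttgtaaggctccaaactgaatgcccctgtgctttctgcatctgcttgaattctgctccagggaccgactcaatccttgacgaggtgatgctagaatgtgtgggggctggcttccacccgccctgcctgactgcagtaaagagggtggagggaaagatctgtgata
Klk6, chr7:43824294-43824498: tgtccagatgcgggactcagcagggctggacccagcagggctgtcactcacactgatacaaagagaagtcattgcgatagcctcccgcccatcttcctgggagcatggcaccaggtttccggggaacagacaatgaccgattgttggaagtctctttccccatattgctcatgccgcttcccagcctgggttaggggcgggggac
Klk8, chr7:43797327-43797576: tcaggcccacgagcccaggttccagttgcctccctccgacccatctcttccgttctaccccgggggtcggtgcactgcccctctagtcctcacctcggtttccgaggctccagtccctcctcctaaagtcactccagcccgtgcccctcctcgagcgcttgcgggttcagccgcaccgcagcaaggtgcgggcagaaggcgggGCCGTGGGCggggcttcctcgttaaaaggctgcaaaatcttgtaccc
Klk9, chr7:43791641-43791890: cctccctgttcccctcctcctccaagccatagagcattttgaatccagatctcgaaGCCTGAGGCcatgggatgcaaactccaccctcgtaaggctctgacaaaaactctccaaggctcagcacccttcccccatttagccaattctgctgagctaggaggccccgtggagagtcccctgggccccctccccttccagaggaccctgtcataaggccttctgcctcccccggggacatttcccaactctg

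The AP-2 letters lay 47 bases before the start of Klk8 and 194 before that of Klk9, and in 2 of the 11 upstream windows of the kallikreins, some of which have more than 1 start. Over all 32851 windows of that length in the table, 13.7% held them on either strand. The AP-2 form with a spacer 1 base longer was in 0 of the 11 windows, beside 12.3% of all. Likewise the AP-1 letters TGANTCA and the TATA letters TATAAA were in 0 of 11, beside 6.75% and 12.4%. A match is a run of letters and was not tested as a binding site.

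Klk5 (ENSMUSG00000074155, chromosome 7, 43841971 to 43851181), the initiating enzyme, had 138, 68.5 and 69.5 CPM in control replicates 1, 2 and 3. Under the double-knockout label it had 10.6, 24.8 and 18.7 CPM, on 147 to 364 counts. Every control lay above every library labelled double knockout, and control replicate 1 stood well above the other controls. The log2 fold change was -2.42 (edgeR SE 0.38, adjusted p 0.00742), and it was -1.99 without control replicate 1.

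Klk7 (ENSMUSG00000030713, chromosome 7, 43811294 to 43816359), which cuts corneodesmosin and desmocollin 1, had 356, 232 and 296 CPM in the controls. It had 141, 143 and 161 CPM under the double-knockout label, on 1950 to 2858 counts. Those 3 libraries were close together and below all controls. Its fitted log2 fold change was -1.07 (edgeR SE 0.17, adjusted p 0.00495).

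Spink5 (ENSMUSG00000055561, chromosome 18, 43963235 to 44022501), the inhibitor, had 1438, 1267 and 1190.5 CPM across the controls, against 641, 728 and 658 CPM under the double-knockout label. It was the member with the narrowest spread, with coefficients of variation of 9.77% and 6.77%, and the groups did not overlap. Its log2 fold change was -1.02 (edgeR SE 0.14, adjusted p 0.00241).

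Klk6 (ENSMUSG00000050063, chromosome 7, 43824499 to 43832030), a trypsin-like kallikrein best known from the nervous system, had 4.32, 4.77 and 2.60 CPM in the controls, from 40 to 54 counts. Under the double-knockout label it had 33.1, 21.1 and 25.8 CPM, from 309 to 457 counts. The lowest of these was above the highest control. In the fit the log2 fold change was 2.66 (edgeR SE 0.29, adjusted p 0.000875).

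**Figure D1:**
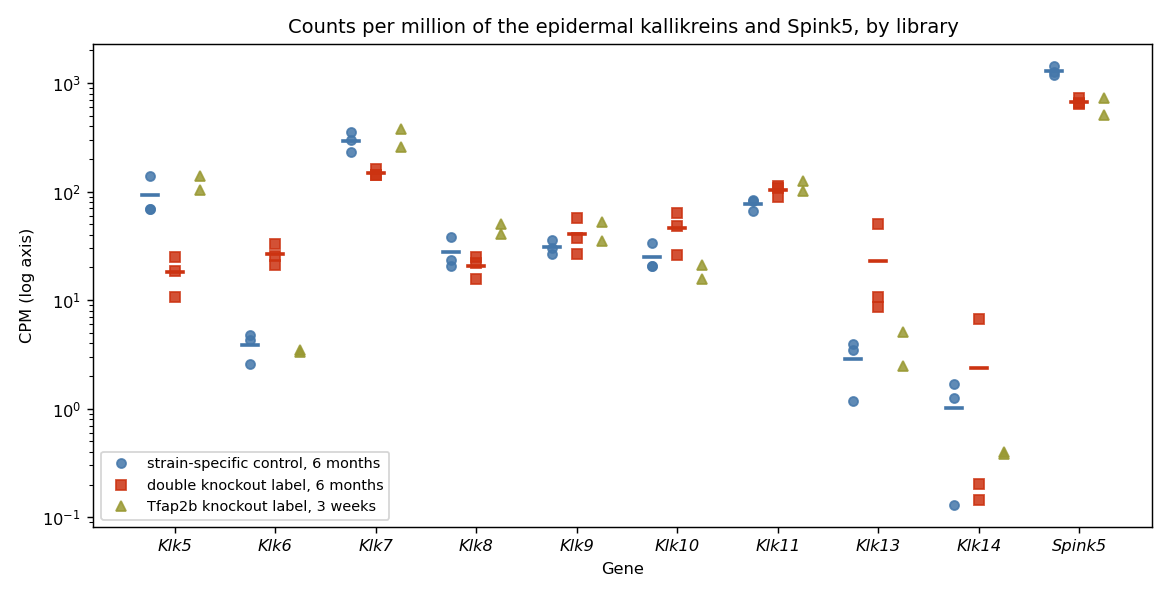
CPM on a log axis for each of the 10 genes in each library with counts; circles are the strain-specific control at 6 months, squares the libraries labelled double knockout at 6 months, triangles the libraries labelled Tfap2b knockout at 3 weeks, and bars the means of 3 libraries. Squares lie below all circles for Klk5, Klk7 and Spink5 and above all circles for Klk6, Klk11 and Klk13.

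Klk13 (ENSMUSG00000054046, chromosome 7, 43712567 to 43727534) had 3.99, 3.45 and 1.17 CPM across the controls, against 10.6, 8.66 and 49.9 CPM under the double-knockout label. All 3 of these were above the controls, but replicate 3 stood far from the other libraries of its label. The log2 fold change of 2.90 (SE 0.83) had an edgeR adjusted p of 0.0559. Without that library it was 1.67 (edgeR adjusted p 0.0581). Klk13 passed the threshold in 5 of 16 alternatives, with DESeq2 and after subtraction of a background among them.

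Klk14 (ENSMUSG00000044737, chromosome 7, 43690418 to 43695536), an activator of other kallikreins in human skin, had few counts outside 1 library. It had 15, 19 and 2 counts across the controls, against 2, 3 and 119 under the double-knockout label. Only replicate 3 of the latter was above the controls, at 6.71 CPM. The log2 fold change was 1.08 (edgeR SE 1.39, adjusted p 0.591), and without that library the sign turned, to -1.87. A background estimated from odorant and vomeronasal receptor genes came to 2.04 and 4.06 counts in control replicates 1 and 2. Of its exonic bases 287 (22.6%) are also exons of an antisense transcript, 2310002F09Rik, and 20.99% of its 50-base runs occur in transcripts of other genes, so its counts are uncertain.

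Some genes of the cornified layer and of stressed keratinocytes were also high in replicate 3 of the double-knockout label, and others were not. Replicate 3 was the highest of the 3 libraries of its label for 8 of the 12 granular and cornified markers and for 5 of the 8 stress genes. Flg, the filaggrin gene, was at 586 CPM there and at 99.6 and 149 CPM in replicates 1 and 2, and S100a8, a calprotectin subunit, was at 172 CPM against 24.04 and 4.23. Flg2, in contrast, was at 751 CPM against 535 and 1107, and Sprr1b, a cornified envelope gene of stressed cells, was at 153 CPM against 189 and 179. These 4 genes were chosen after their values were seen. Their part in the values of Klk13 and Klk14 was not tested.

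Klk10 (ENSMUSG00000030693, chromosome 7, 43781035 to 43785410) had 20.4, 33.5 and 20.5 CPM across the controls, against 63.6, 26.2 and 48.6 CPM under the double-knockout label. The groups overlapped, since replicate 2 of the latter lay among the controls. On the log2 scale the difference was 0.81 (edgeR SE 0.32, adjusted p 0.119). Klk10 passed the threshold in 3 of 16 alternatives, DESeq2 among them. Without that library the difference was 1.14 and passed the threshold (edgeR adjusted p 0.0348).

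Klk11 (ENSMUSG00000067616, chromosome 7, 43774604 to 43779263) had 82.0, 65.6 and 83.5 CPM across the controls, against 113, 89.3 and 108 CPM under the double-knockout label. The groups did not overlap, as in 6 of the 10 members, beside 38.7% of all genes tested. Of those members 3 were higher (22.5% of all genes) and 3 lower (16.3%). An unadjusted p under 0.05 was reached by 7 members, beside 32% of all genes. The log2 fold change of 0.35 (edgeR SE 0.15, adjusted p 0.145) passed the threshold only without control replicate 3, at 0.49 (edgeR adjusted p 0.0445), among the 16 alternatives.

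Klk9 (ENSMUSG00000047884, chromosome 7, 43791891 to 43796757) had 36.0, 26.9 and 30.3 CPM across the controls, against 37.6, 26.7 and 56.8 CPM under the double-knockout label. Its groups overlapped, and its log2 fold change was 0.31 (edgeR SE 0.27, adjusted p 0.456). Without replicate 3 of the double-knockout label it was 0.006.

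Klk8 (ENSMUSG00000064023, chromosome 7, 43797577 to 43803826), known as neuropsin, had 38.2, 23.5 and 20.8 CPM across the controls, against 15.7, 21.9 and 24.8 CPM under the double-knockout label. The groups overlapped (log2 fold change -0.47, SE 0.27, edgeR adjusted p 0.258). Of its exonic bases 382 (24.8%) are also exons of 2310002F09Rik. Reads there cannot be assigned without strand, whose use was not stated, so the value of Klk8 is uncertain.

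**Figure D2:**
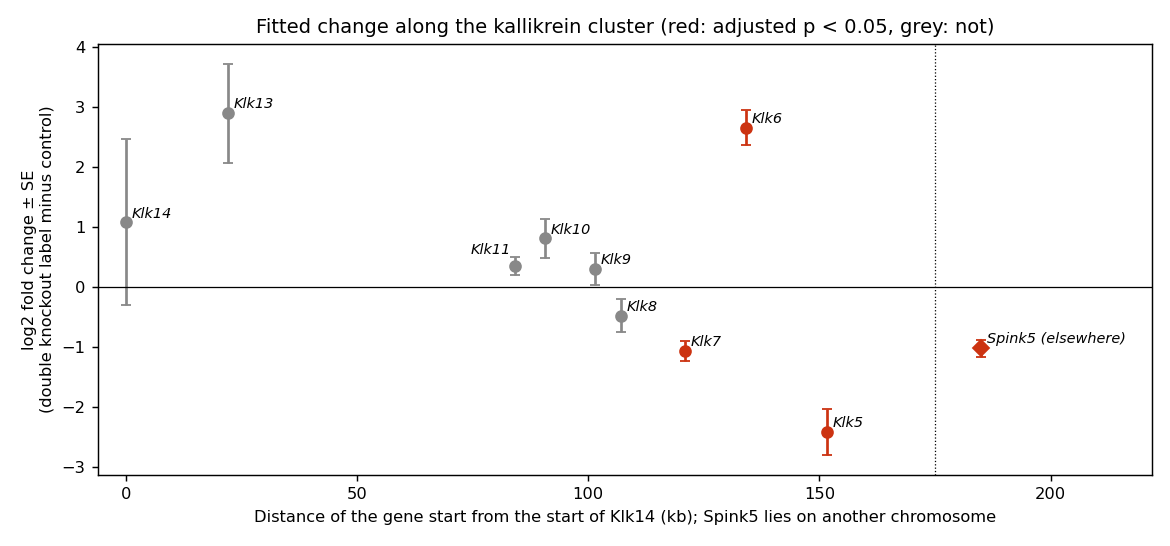
Fitted log2 fold change at 6 months (vertical axis, with SE; red where the adjusted p was under 0.05, grey where not) against the distance of each kallikrein's start from that of Klk14 in kb, with Spink5 at the right beyond the dotted line. Klk6, at 2.66, stands between its neighbours Klk7, at -1.07, and Klk5, at -2.42.

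Klk6 rose while Klk7 and Klk5, the genes on either side of it, fell. Of the 9 kallikreins, 6 had a fitted value above 0 and 3 below. Klk12 (ENSMUSG00000044430), which lies within the same cluster, had 5.12 ± 1.89 CPM across the controls, against 5.57 ± 0.766 CPM under the double-knockout label (SD, n = 3 each), with a fitted log2 difference of 0.04 (edgeR SE 0.34, adjusted p 0.941).

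The order of the levels among genes was read from CPM per kb of exon. In the controls Spink5 was highest, at 271 ± 26.5 CPM per kb (SD, n = 3), above Klk7 at 155 ± 32.8, and the ranges of this pair did not overlap. Klk5 followed at 69.0 ± 29.97 and Klk11 at 52.5 ± 6.74, with overlapping ranges. Klk9 (21.02 ± 3.11), Klk10 (18.1 ± 5.47) and Klk8 (17.9 ± 6.07) could not be ordered beyond their spread. Klk6 (2.58 ± 0.755), Klk13 (1.25 ± 0.650) and Klk14 (0.801 ± 0.629) were lowest, and their neighbouring ranges overlapped too.

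The order differed under the double-knockout label. Spink5 was still highest, at 141 ± 9.55 CPM per kb (SD, n = 3), but Klk7 (78.3 ± 5.83) and Klk11 (70.6 ± 8.59) now had overlapping ranges. Klk10 (33.6 ± 13.7), Klk9 (27.4 ± 10.3), Klk6 (17.6 ± 4.01), Klk8 (13.51 ± 3.01), Klk5 (13.50 ± 5.32), Klk13 (10.05 ± 10.1) and Klk14 (1.85 ± 2.97) followed, and each had a range that overlapped the next, so neighbours among them could not be ordered beyond their spread.

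**Figure D3:**
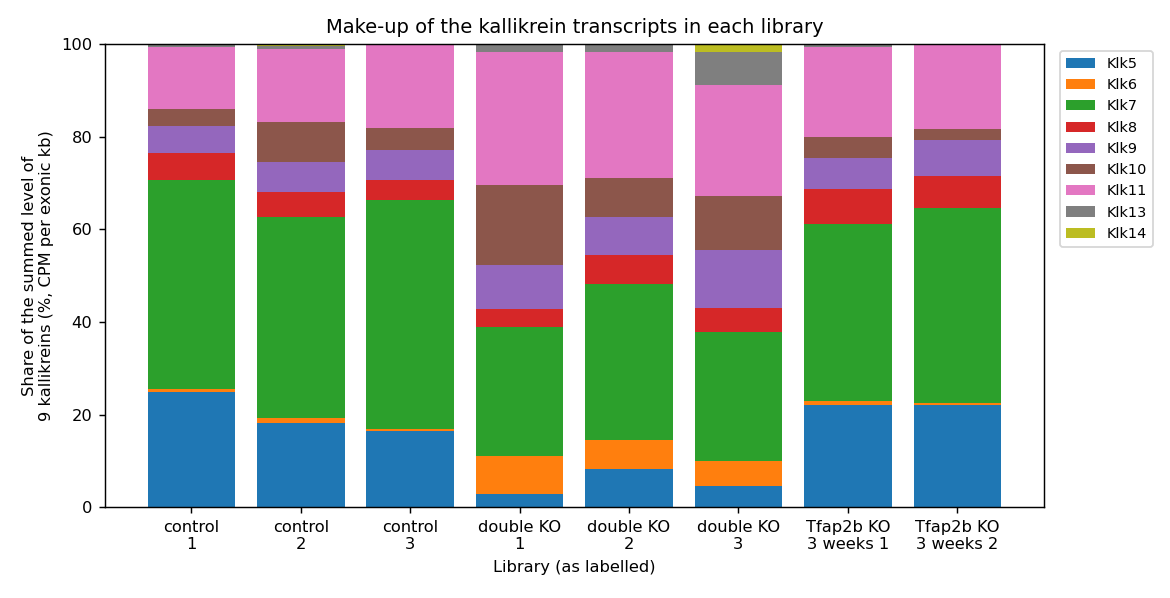
Stacked bars give the share of each kallikrein in the summed CPM per exonic kb of the 9 kallikreins, in percent, for each library with counts. Klk5 and Klk7 make up most of the bars of the controls and of the libraries labelled Tfap2b knockout, and under 50% of each bar labelled double knockout.

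The summed kallikrein level was 417, 282 and 317 CPM per kb across the controls, against 268, 224 and 307 under the double-knockout label, with overlapping groups. Klk5 held 19.8% ± 4.43 of that sum across the controls, against 5.27% ± 2.73 under the double-knockout label (SD, n = 3 each). Klk7 held 45.9% ± 3.11 and 29.7% ± 3.39, and Klk11 held 15.7% ± 2.29 and 26.7% ± 2.38. Klk6 went from 0.782% ± 0.299 to 6.64% ± 1.35. For these 4 genes, as for Klk9 and Klk13, the shares did not overlap between the groups. Shares are parts of a whole, so where Klk5 and Klk7 take less, the others take more even at an unchanged level. The CPM of Klk9 itself overlapped between the groups, at 26.9 to 36.0 across the controls and 26.7 to 56.8 under the double-knockout label.

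Summed over the 7 kallikreins other than Klk5 and Klk7, the level was 125, 109 and 108 CPM per kb across the controls, against 186, 130 and 208 under the double-knockout label. Klk5 and Klk7 together went the other way, from 291, 174 and 208 to 82.5, 93.9 and 98.9 CPM per kb. These sums are descriptions with no test, because the members were chosen with results known.

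Set against the inhibitor, the summed kallikreins were at 1.39, 1.07 and 1.27 times the level of Spink5 across the controls, against 2.00, 1.47 and 2.23 times under the double-knockout label, per kb of exon. The groups did not overlap. The ratio of Klk7 to Spink5 was 0.572 ± 0.0952 across the controls, against 0.556 ± 0.0612 under the double-knockout label (SD, n = 3 each). Klk5 went from 0.249 ± 0.0830 to 0.0944 ± 0.0320 of the level of Spink5 and Klk11 from 0.195 ± 0.0307 to 0.504 ± 0.0920. These are ratios of transcripts and say nothing of enzyme activity.

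In the 2 libraries labelled Tfap2b knockout at 3 weeks, Klk5 was at 104 and 139 CPM, Klk7 at 256 and 377, Klk6 at 3.47 and 3.36 and Spink5 at 511 and 729. Klk5, Klk7 and Klk6 were thus nearer to the controls of 6 months than to the libraries labelled double knockout, and Spink5 was not. Summed kallikreins stood at 3.29 and 3.10 times Spink5 per kb. Age, genotype and library cannot be told apart here. Replicate 1 also held 14862 CPM of 10 sebaceous gland genes and 2622 CPM of 8 dermal fibroblast genes, where replicate 2 held 1273 and 23.3, and their part in these values was not tested.

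Over the 8 libraries Klk5 and Klk7 varied together (Pearson r 0.94 of log2(CPM + 1)), and Klk6 varied against both (r -0.94 and -0.91). Over all 8, the r of Spink5 was 0.47 with Klk7 and 0.40 with Klk5. Klk6 went with Klk10 (r 0.83) and Klk13 (r 0.82). These correlations describe 8 libraries that differ in genotype and age. In the 2 libraries of 3 weeks Spink5 was at 511 and 729 CPM, Klk7 at 256 and 377 and Klk5 at 104 and 139. At 6 months Klk5, Klk7 and Spink5 were all lower in every library labelled double knockout than in any control. The r over the libraries of 6 months alone was not computed. Among 13628 other protein-coding genes with a mean of at least 1 CPM, the nearest pattern to Klk5 was that of Slc9a3, a sodium and proton exchanger (r 0.988). Mmp13, a collagenase, was nearest to Klk6 (r 0.988), the transcription factor gene Srf to Klk7 (r 0.983) and Cyp51, of cholesterol synthesis, to Spink5 (r 0.983). The nearest were Vasn for Klk8 (r 0.965), Cnfn for Klk9 (r 0.957), Mtrf1 for Klk10 (r 0.952), E030018B13Rik for Klk11 (r 0.938), Alg2 for Klk13 (r 0.970) and Spats2l for Klk14 (r 0.957). Each is the highest of 13628 values over only 8 libraries. A search of that size can give a high r without a real likeness, and none was tested. Mtrf1 was low, at 0.830 to 1.74 CPM, and the pattern of Klk14 rests mainly on 1 library with 119 counts.

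**Figure D4:**
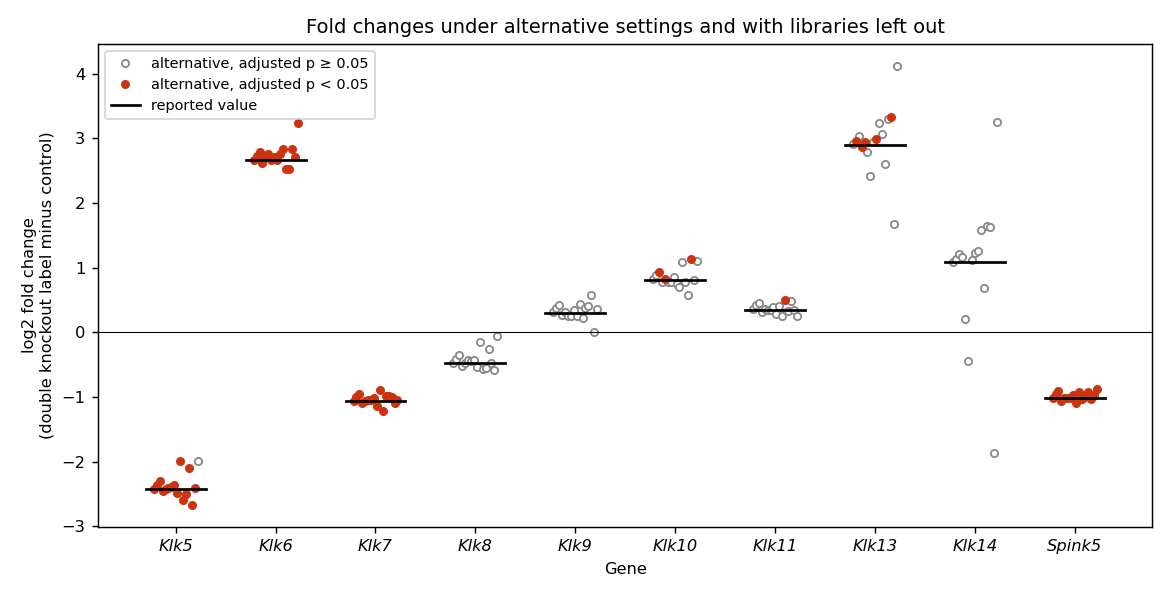
Log2 fold change of each member at 6 months under 16 alternatives (points; filled where the adjusted p was under 0.05), with the reported value as a bar; Klk14 has 15. Points of Klk6, Klk7 and Spink5 are all filled, and those of Klk14 spread from -1.87 to 3.26.

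The calls of Klk6, Klk7 and Spink5 held in all 16 alternatives run, with log2 fold changes of 2.52 to 3.24, of -1.21 to -0.90 and of -1.09 to -0.87. Klk5 passed the threshold in 15, from -2.67 to -1.99. The exception for Klk5 was control replicate 3 set alone against the libraries labelled double knockout, where Klk5 was at -1.99 (edgeR adjusted p 0.0961). In that fit the spread comes from the other group alone, and the lone control is assumed to vary like it.

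Other genes of the desquamation pathway were read from lists chosen with earlier results of these data known. Among 24 other proteases of the cascade and of filaggrin processing, 18 were tested, of which 4 rose and 2 fell, beside 6.26% higher and 8.59% lower over all genes tested (median log2 fold change 0.12 and -0.04). Blmh, the bleomycin hydrolase that degrades filaggrin fragments, went up, from 102 ± 12.4 to 228 ± 33.2 CPM (SD, n = 3 each), with a fitted log2 difference of 1.08 (edgeR SE 0.16, adjusted p 0.00337). Ctsc, a dipeptidyl peptidase, rose by 1.06 on the log2 scale (edgeR adjusted p 0.0180), Furin, a proprotein convertase, by 0.63 (edgeR adjusted p 0.0175) and the urokinase gene Plau by 0.96 (edgeR adjusted p 0.0468). Prss8, the membrane protease prostasin, fell by 1.04 (edgeR adjusted p 0.0301) and Plat, the tissue plasminogen activator, by 2.06 (edgeR adjusted p 0.0204). St14, encoding matriptase, which can activate Klk5 in mouse epidermis, was at 121 ± 12.5 and 122.8 ± 8.25 CPM (edgeR adjusted p 0.801).

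The calls of Ctsc, Furin, Plau, Prss8 and Plat were lost in some alternatives, and that of Blmh in none. Plau passed in 8 of 16, Prss8 in 10, Plat in 11, and Ctsc and Furin in 13 each. Without control replicate 2 or without replicate 1 of the double-knockout label, the number called in this list was 2 and 1 in place of 6, and without control replicate 3 it was 12.

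Of 19 other inhibitors 10 were tested, with 1 higher and 2 lower, beside 6.26% higher and 8.59% lower over all genes tested. Their median log2 fold change was -0.17. Serpina12, which encodes vaspin, an inhibitor of Klk7, was at 224, 123.2 and 110 CPM across the controls, against 26.1, 62.3 and 22.9 CPM under the double-knockout label, a fitted log2 difference of -2.11 (edgeR SE 0.46, adjusted p 0.0276). Serpinb6c, a clade B serpin, went up, from 0.787 ± 0.408 to 7.69 ± 0.577 CPM (SD, n = 3 each), with a fitted log2 difference of 3.00 (edgeR SE 0.45, adjusted p 0.00272). It has close paralogs that can share reads. Wfdc5, of the whey acidic protein family, fell by 1.03 on the log2 scale (edgeR adjusted p 0.0325). Serpina12 passed the threshold in 12 of 16 alternatives and Wfdc5 in 10. Leaving out control replicate 1, or replicate 1 or 3 of the double-knockout label, left only 1 call in this list, and leaving out control replicate 3 gave 6. Spint1, an inhibitor of matriptase, was at 70.5 ± 8.92 and 68.8 ± 11.1 CPM (edgeR adjusted p 0.697).

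A further list of 16 genes was drawn up for substrates and receptors of the kallikreins. It includes the cytokine gene Tslp and the cornified layer genes Flg, Flg2, Hrnr and Lor. Whether each gene's product is a kallikrein target was not tested. Of the 16 genes 15 were tested, with 1 higher and 4 lower, beside 6.26% higher and 8.59% lower over all genes tested. Their median log2 fold change was -0.58. F2rl1, the receptor PAR2 that Klk5 can switch on by cutting it, was at 170, 168 and 144 CPM across the controls, against 70.9, 85.02 and 70.4 CPM under the double-knockout label. It fell by 1.16 on the log2 scale (edgeR SE 0.14, adjusted p 0.00154). Cdsn, the corneodesmosin gene, fell from 836 ± 162 to 382 ± 50.8 CPM (SD, n = 3 each), with a fitted log2 difference of -1.21 (edgeR SE 0.18, adjusted p 0.00344). Flg2, a filaggrin relative, fell by 1.47 (edgeR adjusted p 0.00982) and Dsc1, the desmocollin of the upper layers, by 0.88 (edgeR adjusted p 0.0430). Dsc1 passed in 8 of 16 alternatives, and F2rl1 and Cdsn in all 16.

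The desmoglein 1 genes, whose close sequences can share reads so that their separate values are uncertain, were read separately here. Dsg1b went up, from 238 ± 40.1 to 456 ± 26.3 CPM (SD, n = 3 each), with a fitted log2 difference of 0.87 (edgeR SE 0.14, adjusted p 0.00565). Dsg1a was at 2992 ± 403 and 2407 ± 583 CPM (edgeR adjusted p 0.182). Of the 17 other genes of the kallikrein family in the files, 13 were under 1 CPM in all 6 libraries of this comparison, and Klk12 was the only one tested.

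**Figure D5:**
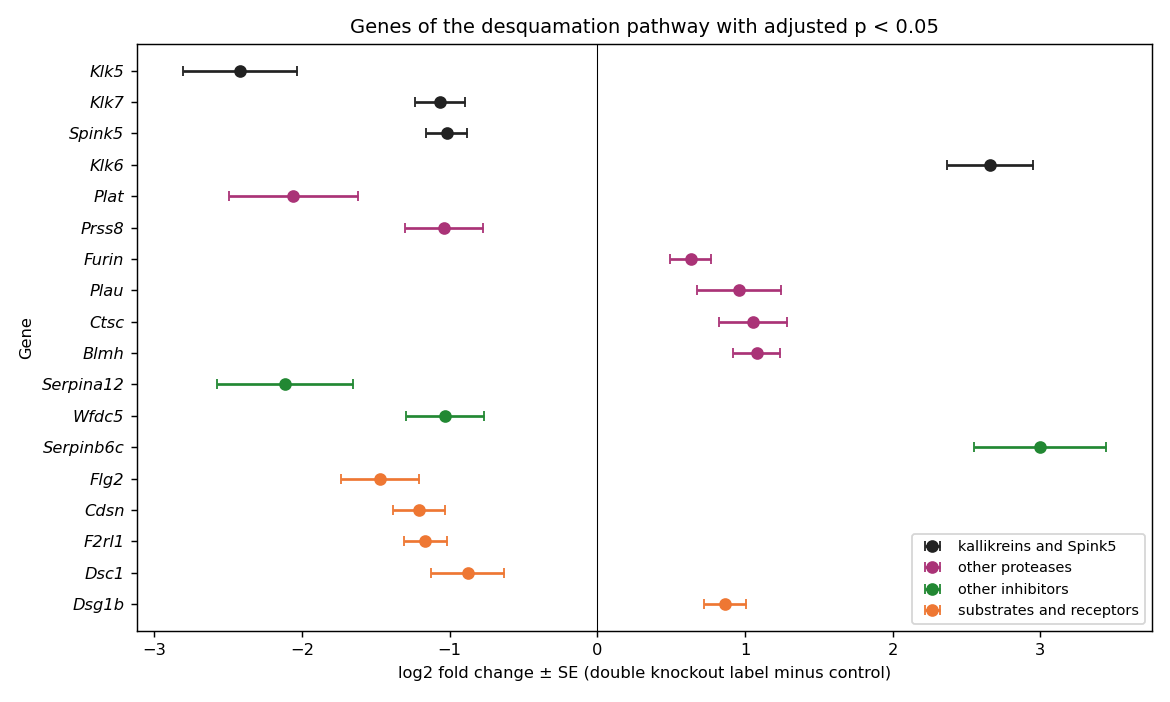
Log2 fold change with SE at 6 months (horizontal axis) for the members and the genes of the pathway lists past an adjusted p of 0.05, coloured by list. Klk5, Klk7, Spink5, Prss8, Plat, Serpina12, Wfdc5, Flg2, Cdsn, F2rl1 and Dsc1 lie below 0, and the other 7 above.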

How the data were processed

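RNA of mouse epidermal sheets was depleted of ribosomal RNA and sequenced as 150 bp paired-end reads, per the labels' protocols. The deposited files hold the authors' raw counts per gene, with exonic lengths. Trimmomatic 0.36, STAR 2.5.2b, featureCounts of Subread 1.5.2, GRCh38 and GRCm38 are named, per the submitters' processing notes, with no role or order; strand and treatment of multi-mapped reads are not given in the sources used here. Of 49315 identifiers 49056 (99.5%) were in GENCODE M21.

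Counts of 6 libraries (11318181 to 17746284 each) were tested with edgeR 4.0.16 in R 4.3.3: filterByExpr, TMM scaling, the robust quasi-likelihood test with prior count 2, and Benjamini-Hochberg adjustment over 17755 genes. The alternatives were 16, with limma 3.58.1 and DESeq2 1.42.0 among them. CPM is a count per 1000000 counts of the library, and CPM per kb divides it by exonic length. On simulated counts with 4-fold changes, 178 of 193 changed genes tested (92.2%) were called. All genes were simulated with 1 common spread, a biological coefficient of variation of 0.31. Recovery of smaller changes was not tested. Klk8, Klk9, Klk10, Klk11 and Klk14, which did not pass the threshold, were all fitted below 4-fold, so that share does not describe them. Klk13, which did not pass either, was fitted at 7.48-fold. Its coefficient of variation was 101% under the double-knockout label, wider than the simulated spread, so the share does not describe it either. The members and lists were chosen with earlier results of these data known. All members are named, with at most 6 called genes of each pathway list by smallest p and, for each member, the gene with the most similar pattern; St14, Spint1, Klk12, Dsg1a, Flg, S100a8, Sprr1b, Lor, Rptn and 2310002F09Rik were added after their values were seen. Files with every gene at 0 entered no test.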

Additional observations from a re-analysis of the deposited data

How the results depend on the processing

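Over all genes tested, 2637 were called, against 4809 with no filter, 1729 with the replicate block, 1548 with all 8 libraries in one fit and 437 with control replicate 3 alone. Leaving out 1 library gave 668 (without replicate 1 of the libraries labelled double knockout) to 7544 (without control replicate 3). Among the members 4 were called, and 3 to 6 under the alternatives. Same-numbered samples did not deviate together (correlations 0.0276, -0.161 and -0.0574). The labels do not say what the number marks, and low correlations cannot exclude a shared origin, so pairing stays unknown. The replicate block changed no call of a member. Klk14 turned sign, to -0.44 with the replicate block and -1.87 without replicate 3 of the libraries labelled double knockout; the cause was not tested. Leaving out 1 library gave -1.87 to 1.64. Of the pathway lists, the other proteases gave 12 calls with no filter, 1 with control replicate 3 alone and 1 to 12 leaving out 1 library, in place of 6. The inhibitors gave 1 with control replicate 3 alone and 1 to 6 leaving out 1 library, in place of 3, the substrates 2 with control replicate 3 alone, in place of 5, and the other kallikreins 0 to 3 leaving out 1 library, the 3 without control replicate 3.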

Other observations

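2310002F09Rik (ENSMUSG00000097178), a non-coding gene on the strand opposite to the kallikreins, was chosen after its values were seen, because its exons overlap those of Klk8 and Klk14. It had 27.8, 16.4 and 16.9 CPM across the controls, against 9.70, 5.93 and 7.49 CPM under the double-knockout label, and the groups did not overlap. It fell by 1.47 on the log2 scale (SE 0.28, edgeR adjusted p 0.0110), a call that held in 15 of 16 alternatives. Since the use of strand was not stated, the exons shared with Klk8 and Klk14 make its counts uncertain too.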
